A study of Mus musculus with 4 samples.

Results

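Satb1, Mef2c, Bcl11a, Sox4, Foxo1, Foxo3, Foxp1 and Myb are transcription factors that early blood progenitors use on the way to B and T cells. They were followed in mouse lymphoid-primed multipotent progenitors (LMPPs), bone marrow cells that still form lymphoid and myeloid cells. Members were all probe sets whose platform gene symbol is exactly 1 of these 8 names, which gave 8 of 18193 genes and 43 of 45037 probe sets. A further probe set, shared between Foxo3 and another gene, was left out by that rule. The Lyl1-null group held 2 arrays and the wild-type group 2 arrays, all from C57Bl/6 mice of 6 to 8 weeks. Cells had been sorted for high Flt3, for Kit and for Sca-1, with no lineage marker. Lyl1 encodes a blood transcription factor of the helix-loop-helix family, and the design asks which genes of the LMPP depend on it. The labels do not say whether the arrays of a group came from separate mice or from pools, nor from which sex. The spread between the wild-type arrays may therefore be technical, and the p-values below rest partly on it. The Lyl1-null arrays differed from each other in Lyl1 and in Xist, with values given below.

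Lymphoid priming is the stage at which a multipotent progenitor begins to transcribe lymphoid genes at a low level before it loses other fates. Satb1 organises chromatin loops, Mef2c is a MADS-box factor held in check by class II histone deacetylases, and Bcl11a is a zinc finger repressor that recruits deacetylase complexes. Sox4 is an HMG-box factor needed for early B cells, Foxo1 and Foxo3 are forkhead factors kept out of the nucleus by AKT, Foxp1 is a forkhead repressor, and Myb is an activator that stem cells and lymphoid precursors both need.

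The arrays labelled Lyl1-null replicate 1 and Lyl1-null replicate 2 are given separately for many of the results, because they differed in Lyl1 itself. A difference given without an array is over both. On the log2 scale of the deposited RMA values, Lyl1 (1419120_at) read 5.14 on the array labelled Lyl1-null replicate 1 and 10.32 on the array labelled Lyl1-null replicate 2, against 12.34 and 12.29 on the wild-type arrays. The second of these arrays therefore kept 25.1% of the wild-type signal, which goes against its label, and the first 0.692%. Xist, an RNA of female cells, was at 14.26 on the array labelled Lyl1-null replicate 2 and between 5.81 and 6.30 on the other 3. That array also differed at least 2-fold from each of the others in 1076 to 1922 of 22519 probe sets, where the other 3 differed among themselves in 79 to 241. Flt3 and Kit, which the sort used, and Ptprc, Cd34, Cd48 and Cd27, other surface genes of early progenitors, lay above the level filter of 5.69 on every array. Ly6a, which encodes Sca-1, was not analysed here. Markers of other cell types lay on both sides of that filter. The T-cell genes Cd3d, Cd3g and Cd8b1 and the NK-cell genes Ncr1 and Gzma lay below it on every array. So did the B and plasma cell genes Ms4a1, Cr2, Fcer2a and Prdm1, and the globin Hba-a1. The neutrophil and monocyte genes Itgam and Cd14 and the megakaryocyte gene Vwf also lay below it on every array. Ltf, S100a9, Jchain, Cd22, Alas2 and Klf1 lay above it on some arrays only. Above it on every array were Cd3e (6.07 to 6.25), Cd4 (6.37 to 6.85), Cd8a (5.72 to 6.47), and the NK-cell genes Klrd1 (6.17 to 6.98) and Nkg7 (11.18 to 11.66). The same held for the plasma cell gene Sdc1 (8.95 to 9.14), and the erythroid genes Car1 (6.71 to 8.57) and Epor (6.08 to 6.66). It held for the neutrophil and monocyte genes Ngp (6.55 to 8.87), Camp (7.30 to 9.73), S100a8 (6.12 to 8.06) and Csf1r (10.32 to 10.71). It also held for the megakaryocyte genes Itga2b (8.70 to 9.18), Pf4 (7.23 to 8.61) and Gp9 (6.96 to 7.44).

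None of the 8 factors passed the test between genotypes with all 4 arrays. Of their 43 probe sets, 37 had a mean of at least 5.69, the median over the whole array, and were tested in limma, and 6 were dim and are given as values only. At an adjusted p under 0.05, 0 of the 37 passed, where 0.00888% of all tested probe sets did (2, for Ctse and Lrmda). At an unadjusted p under 0.05 there were 3, against 7.39% of all tested. Both Lyl1-null arrays lay below both wild-type arrays for 11 of the 37, where 26.4% of all tested probe sets did so, and above them for 3, where 17.4% did. The median difference, Lyl1-null minus wild type, was −0.21 over the 37 and −0.07 over all tested. Probe sets of 1 gene share its RNA, so these are not 37 independent values. With 2 arrays a group, missing the threshold does not show that the levels were equal, and 95% intervals are given below for the main probe sets.

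Most of that difference came from the array labelled Lyl1-null replicate 2. The 37 probe sets had a median difference from the wild-type mean of −0.07 on the array labelled Lyl1-null replicate 1 and of −0.31 on the array labelled Lyl1-null replicate 2, where all tested probe sets had −0.02 and −0.10. The second of these arrays was further from wild type than the first for 29 of the 37 (78.4%), close to the 74.1% of all tested. A fit that set the array labelled Lyl1-null replicate 1 alone against the wild-type arrays called 0 of the 37 (0.0488% of all tested were called), with a lowest adjusted p of 0.600. The fit that set the array labelled Lyl1-null replicate 2 alone against them called 8 as lower, 4 of Sox4, 2 of Bcl11a and 2 of Foxp1, where 8.33% of all tested were called lower. It called 0 as higher, where 1.75% of all tested were. On the array labelled Lyl1-null replicate 2, 6 of the 37 lay at least 1 log2 unit below the wild-type mean (5.18% of all tested). On the array labelled Lyl1-null replicate 1 there were 0 (0.480% of all tested). Foxp1 1421141_a_at is among these 6 and among the probe sets called lower. Its value on the array labelled Lyl1-null replicate 2, 4.63, lay below the level filter. With a single array on 1 side, that array is assumed to vary like the wild-type pair, and its distance from wild type cannot be told apart from whatever else sets this array apart.

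**Figure D1:**
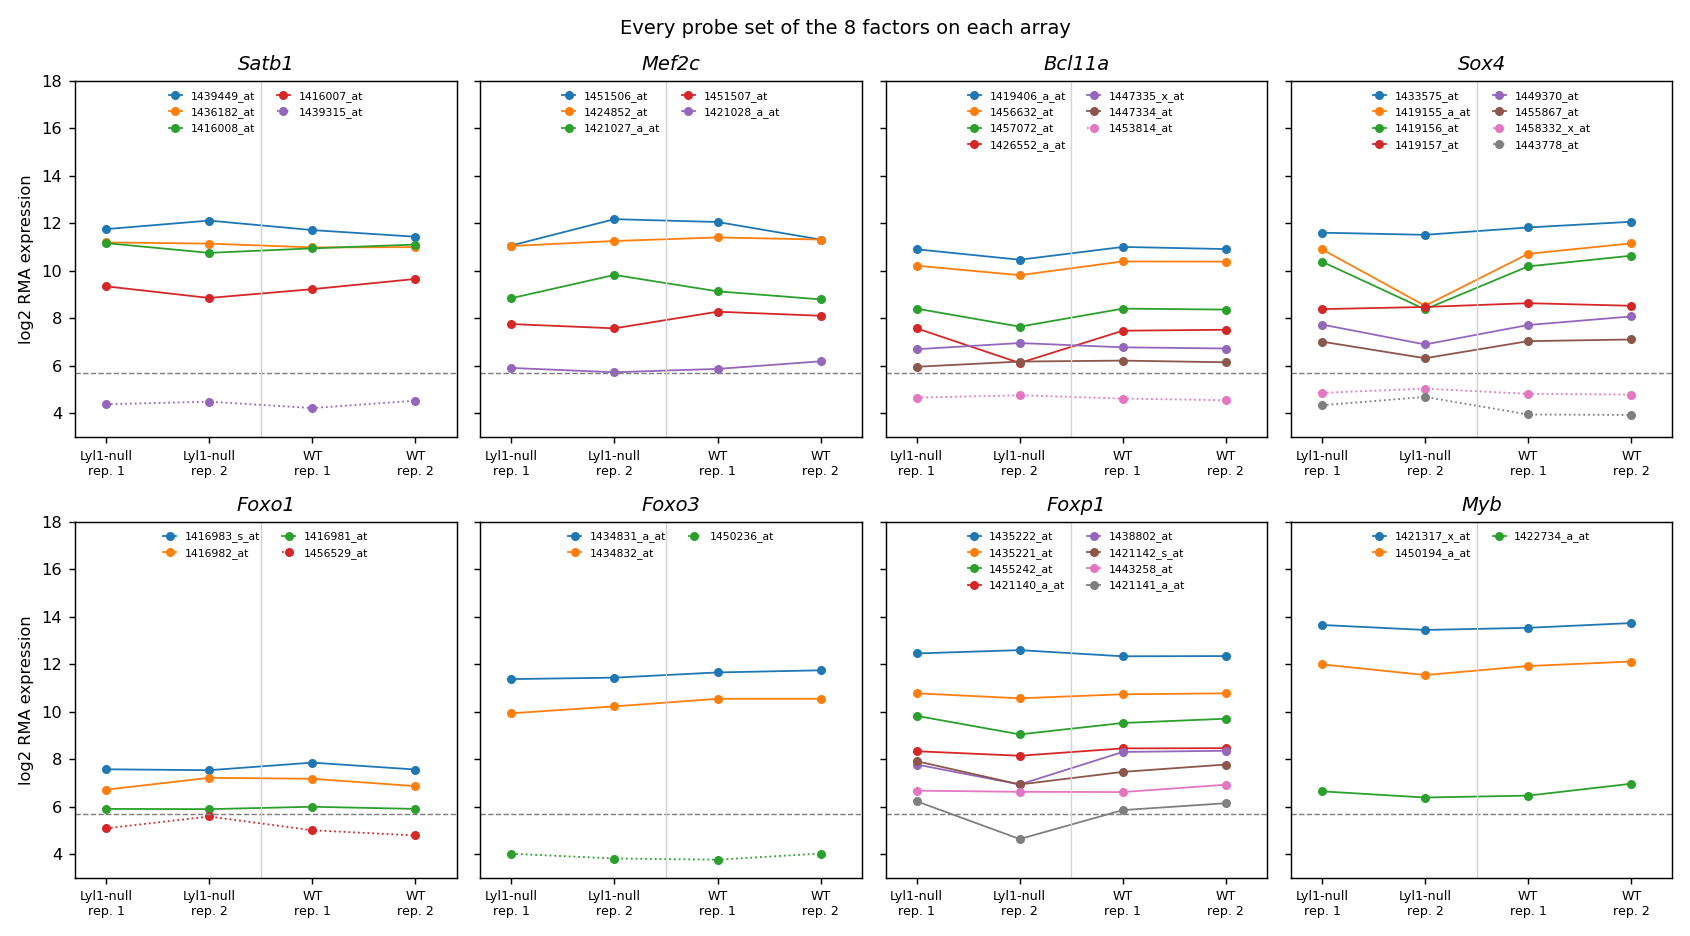
Log2 RMA expression of each of the 43 probe sets (1 line each) on the 2 Lyl1-null and the 2 wild-type (WT) arrays, 1 panel per gene. Dotted lines are the 6 dim probe sets and the dashed line is the level filter of 5.69. The array labelled Lyl1-null replicate 2 is low for 2 bright Sox4 probe sets, 1 of Bcl11a and 2 of Foxp1, while the array labelled Lyl1-null replicate 1 lies near wild type for nearly all lines.

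Sox4 showed the largest gap between the 2 Lyl1-null arrays. The probe set 1419155_a_at read 10.91 and 8.53 on the arrays labelled Lyl1-null replicate 1 and replicate 2, against 10.72 and 11.16 on the wild-type arrays. The first Lyl1-null array lay between the wild-type arrays and the second far below both, at 18.8% of the wild-type mean. The difference over the group was −1.22 (SE 0.75, adjusted p = 0.616) and was not called. Against wild type alone, the array labelled Lyl1-null replicate 2 was lower by −2.41 (adjusted p = 0.0199) and the array labelled Lyl1-null replicate 1 differed by −0.03 (adjusted p = 0.991). The same split held for 1419156_at, with 10.39 and 8.38 on the Lyl1-null arrays against 10.19 and 10.64 on the wild-type arrays.

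Other Sox4 probe sets differed less on that array. The probe sets 1449370_at and 1455867_at were lower there by −1.0 (adjusted p = 0.0458) and −0.75 (adjusted p = 0.0492), and differed by −0.16 and −0.05 on the array labelled Lyl1-null replicate 1. The brightest Sox4 probe set, 1433575_at, read 11.61 and 11.52 on the Lyl1-null arrays against 11.83 and 12.07 on the wild-type arrays. Here the groups did not overlap and both Lyl1-null arrays were similarly low, with a difference of −0.39 (SE 0.18, adjusted p = 0.611). The probe set 1419157_at differed by −0.15 with no overlap either. All 6 tested Sox4 probe sets were negative on both Lyl1-null arrays, by −0.02 to −0.34 on the one labelled replicate 1 and by −0.11 to −2.41 on the one labelled replicate 2. The 2 dim ones were positive, 1443778_at by 0.39 and 0.75 and 1458332_x_at by 0.06 and 0.24. The size of the Sox4 difference thus depended on the probe set by far more than on the wild-type spread, which was at most 0.45 between the wild-type arrays.

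By the rule for likeness, the genes closest to Sox4 1419155_a_at in their 4 values relative to wild type were Zbtb12 (1436382_at), Purb (1419640_at) and Poli (1449098_a_at), at Euclidean distances of 0.09, 0.15 and 0.18 over 4 arrays. Their differences were −0.11, −0.09 and −0.01 on the array labelled Lyl1-null replicate 1, and −2.38, −2.37 and −2.26 on the array labelled replicate 2. With 4 arrays, such likeness amounts to sharing that 1 array's low value.

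Lyl1 binds E-boxes (CANNTG) together with E proteins, so the start regions of the genes were read for these letters in RefSeq promoter windows of GRCm38.p6, each 250 bases before to 50 after a start. All 8 genes matched, with 16 windows. CANNTG, which reads the same on both strands, was in 13 of the 16 windows, where 72.3% of 32851 windows of the same length hold it. The window of Sox4 (chr13:28953650-28953949, minus strand), of Bcl11a (chr11:24080445-24080744, plus strand) and of Foxo3 (chr10:42276646-42276945, minus strand) are printed because Sox4 and Bcl11a held probe sets called lower on the array labelled Lyl1-null replicate 2, and Foxo3 was lower on both Lyl1-null arrays. Foxp1 also held probe sets called lower on the array labelled Lyl1-null replicate 2, and its windows are not printed. Capitals mark every CANNTG.
Sox4: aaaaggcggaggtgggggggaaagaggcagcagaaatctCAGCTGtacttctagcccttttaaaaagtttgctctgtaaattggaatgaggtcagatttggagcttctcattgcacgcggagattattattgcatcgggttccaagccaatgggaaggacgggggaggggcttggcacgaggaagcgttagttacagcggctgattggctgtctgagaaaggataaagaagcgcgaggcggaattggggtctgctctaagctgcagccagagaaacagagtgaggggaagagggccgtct
Bcl11a: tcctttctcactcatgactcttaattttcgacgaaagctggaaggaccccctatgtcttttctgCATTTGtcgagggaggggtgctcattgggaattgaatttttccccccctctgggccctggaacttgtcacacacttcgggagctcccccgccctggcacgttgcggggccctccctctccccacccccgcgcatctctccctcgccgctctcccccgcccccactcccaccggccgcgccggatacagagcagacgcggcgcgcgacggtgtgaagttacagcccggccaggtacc
Foxo3: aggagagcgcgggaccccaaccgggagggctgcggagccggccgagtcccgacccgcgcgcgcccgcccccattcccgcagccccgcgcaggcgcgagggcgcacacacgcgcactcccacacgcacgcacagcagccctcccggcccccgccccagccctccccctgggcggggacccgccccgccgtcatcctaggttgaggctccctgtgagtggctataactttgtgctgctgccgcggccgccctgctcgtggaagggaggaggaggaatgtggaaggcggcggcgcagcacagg
The Sox4 window holds 1 E-box, of the form CAGCTG, a form found in 16.3% of all windows. That form was in 2 of the 16 windows, of Satb1 and Sox4. Of the tested Satb1 probe sets, 2 lay above wild type on both Lyl1-null arrays and 2 overlapped. The Bcl11a window holds 1 E-box as well, CATTTG, and the Foxo3 window has no CANNTG. The form CAGATG or its reverse complement CATCTG, present in 17.2% of all windows, was in 2 of the 16, of Mef2c and Myb, and CAGGTG or CACCTG (20.2%) was in 3, of Satb1 and Foxp1. A forkhead sequence, TGTTTAC or GTAAACA on the other strand (3.65%), was in the Myb window. These forms lie within CANNTG, apart from the forkhead sequence, and no binding was measured here.

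Foxo3, which guards quiescence and stress resistance in blood stem cells, was the 1 gene of the 8 whose tested probe sets (2) all lay lower on both Lyl1-null arrays without overlap. The probe set 1434832_at read 9.93 and 10.22 on the arrays labelled Lyl1-null replicate 1 and replicate 2, against 10.54 and 10.54 on the wild-type arrays. The 2 wild-type arrays were nearly identical, and the lower of the Lyl1-null values was on the array labelled Lyl1-null replicate 1. The difference was −0.47 (SE 0.18, 95% interval −0.92 to −0.02, unadjusted p = 0.0446), which did not pass over all probe sets (adjusted p = 0.611). The second probe set, 1434831_a_at, read 11.37 and 11.43 on the Lyl1-null arrays against 11.65 and 11.74 on the wild-type arrays, again without overlap. Its difference was −0.30 (SE 0.16, adjusted p = 0.611), with −0.32 and −0.27 on the 2 Lyl1-null arrays. Set alone against wild type, the array labelled Lyl1-null replicate 1 gave adjusted p = 0.600 for 1434832_at and 0.787 for 1434831_a_at. The remaining probe set, 1450236_at, was dim at 4.01 and 3.81 on the Lyl1-null arrays and 3.76 and 4.02 on the wild-type arrays.

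Foxo1, which activates Il7r and the recombination genes in lymphoid precursors, overlapped between the groups. Its 3 tested probe sets, 1416983_s_at, 1416982_at and 1416981_at, had differences of −0.15, −0.06 and −0.05. The brightest, 1416983_s_at, read 7.57 and 7.53 on the Lyl1-null arrays against 7.85 and 7.56 on the wild-type arrays, and the gap between the wild-type arrays was larger than the difference between the groups. Its 95% interval ran from −0.61 to 0.30. For 1416982_at the sign differed between the Lyl1-null arrays (−0.31 and 0.20). The dim 1456529_at was positive, by 0.19 and 0.69.

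Foxp1, a forkhead factor that early B-cell development needs, had probe sets that went different ways. The probe set 1438802_at read 7.77 and 6.93 on the arrays labelled Lyl1-null replicate 1 and replicate 2, against 8.30 and 8.35 on the wild-type arrays. Both Lyl1-null arrays were below both wild-type arrays, at 68.1% and 38.0% of the wild-type mean. The difference of −0.97 (SE 0.30, 95% interval −1.72 to −0.22) had the smallest unadjusted p of the 37, 0.0197, and did not pass over all probe sets (adjusted p = 0.611). Alone, the array labelled Lyl1-null replicate 2 passed (−1.40, adjusted p = 0.0248) and the array labelled replicate 1 did not (−0.55, adjusted p = 0.628).

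The brightest Foxp1 probe set, 1435222_at, went the opposite way, with 12.45 and 12.59 on the Lyl1-null arrays against 12.33 and 12.34 on the wild-type arrays. Its groups did not overlap either, and the difference was 0.19 (SE 0.16, adjusted p = 0.678). A different pattern was seen for 1421141_a_at, which read 6.22 and 4.63 on the Lyl1-null arrays against 5.85 and 6.14 on the wild-type arrays. Its mean of 5.71 barely passed the level filter, and the value of 4.63 lay below it. The size of its drop on the array labelled Lyl1-null replicate 2 therefore rests on a dim value. The array labelled Lyl1-null replicate 1 was the highest of the 4 and the array labelled Lyl1-null replicate 2 the lowest (−1.36 against wild type alone, adjusted p = 0.0273). The probe sets 1421142_s_at and 1455242_at split in the same way, with differences of 0.30 and 0.20 on the first array and −0.68 and −0.57 on the second. The other 3, 1435221_at, 1443258_at and 1421140_a_at, differed by −0.08, −0.12 and −0.22, and the last of these lay below wild type on both Lyl1-null arrays. In the array maker's naming, the ending _a_at marks probes that match several transcripts of a gene, _s_at probes shared between transcripts that may be of different genes, and _x_at probes that may cross-hybridise. Which Foxp1 transcripts each probe set reads was not analysed here.

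**Figure D2:**
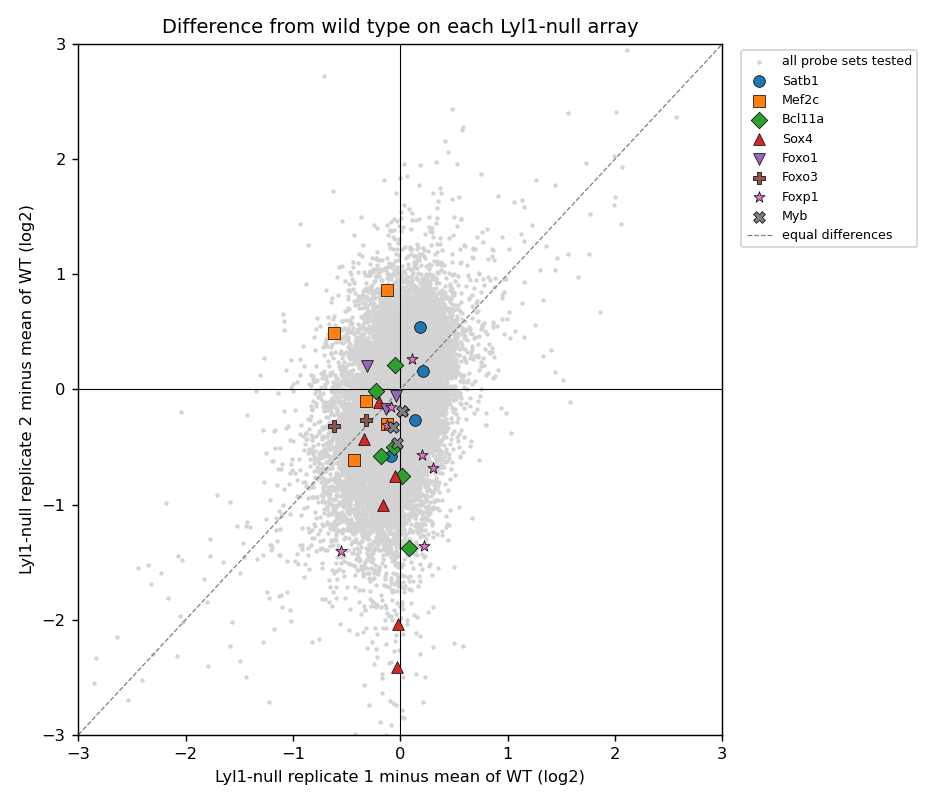
Difference of each tested probe set from the wild-type mean (log2) on the array labelled Lyl1-null replicate 1 (x axis) and on the array labelled Lyl1-null replicate 2 (y axis). Coloured symbols are the 37 tested probe sets of the 8 factors, grey points are all 22519 tested, of which 12 lie outside the axes, and the dashed line marks equal differences. The Sox4, Bcl11a and Foxp1 points that lie lowest on the y axis sit near 0 on the x axis, except Foxp1 1438802_at at −0.55.

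Bcl11a, which B-cell formation requires, had the same kind of split as Sox4. The probe set 1426552_a_at read 7.58 and 6.12 on the arrays labelled Lyl1-null replicate 1 and replicate 2, against 7.48 and 7.52 on the wild-type arrays. The first Lyl1-null array was the highest of the 4 and the second was at 38.5% of the wild-type mean (−1.38 alone, adjusted p = 0.0248). The probe set 1457072_at followed with 8.41 and 7.65 on the Lyl1-null arrays against 8.41 and 8.37 on the wild-type arrays, and passed on the second array alone (−0.75, adjusted p = 0.0491). The bright probe sets 1419406_a_at and 1456632_at were lower on both Lyl1-null arrays without overlap. For 1456632_at the values were 10.22 and 9.82 on the Lyl1-null arrays against 10.40 and 10.39 on the wild-type arrays, a difference of −0.38 (SE 0.20, adjusted p = 0.611). For 1419406_a_at the values were 10.91 and 10.47 on the Lyl1-null arrays against 11.01 and 10.92 on the wild-type arrays. The array labelled Lyl1-null replicate 1 thus lay barely below the lower wild-type array. The difference over the group was −0.28 (SE 0.21, adjusted p = 0.639). The weaker 1447335_x_at and 1447334_at overlapped, at 0.08 and −0.12. The dim 1453814_at read 4.66 and 4.76 on the Lyl1-null arrays against 4.62 and 4.55 on the wild-type arrays.

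Mef2c, which favours lymphoid over myeloid fate in mouse progenitors, was lower in 1 probe set on both Lyl1-null arrays by a like amount. That probe set, 1451507_at, read 7.76 and 7.58 on the Lyl1-null arrays against 8.28 and 8.11 on the wild-type arrays. The groups did not overlap, and the difference was −0.52 (SE 0.17, 95% interval −0.96 to −0.08, unadjusted p = 0.0274, adjusted p = 0.611). The probe set 1424852_at also lay lower without overlap, with 11.05 and 11.26 on the Lyl1-null arrays against 11.41 and 11.32 on the wild-type arrays. Its difference was −0.21 (SE 0.17). The weak 1421028_a_at differed by −0.21 as well (SE 0.19), with overlap between the groups.

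The brightest Mef2c probe set, 1451506_at, varied far more between the wild-type arrays, by 0.74, than between the groups. It read 11.07 and 12.18 on the arrays labelled Lyl1-null replicate 1 and replicate 2, against 12.06 and 11.32 on the wild-type arrays. The lowest and the highest of the 4 values were thus both on Lyl1-null arrays, and the difference of −0.07 had a 95% interval from −1.15 to 1.01. The probe set 1421027_a_at was likewise high on the array labelled Lyl1-null replicate 2 (9.83), at 8.85 on the one labelled replicate 1 and at 9.14 and 8.80 on the wild-type arrays. On the array labelled replicate 2, Mef2c was thus higher in 2 probe sets and lower in 3.

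Satb1, whose loss impairs lymphoid output of stem cells, had 2 probe sets that lay above wild type on both Lyl1-null arrays and 2 that overlapped. The brightest, 1439449_at, read 11.76 and 12.12 on the Lyl1-null arrays against 11.72 and 11.44 on the wild-type arrays. The array labelled Lyl1-null replicate 1 exceeded the higher wild-type array by little, and the difference was 0.36 (SE 0.21, adjusted p = 0.611). The probe set 1436182_at read 11.20 and 11.15 on the Lyl1-null arrays against 10.99 and 11.00 on the wild-type arrays, a difference of 0.18 (SE 0.16, adjusted p = 0.677). The probe set 1416007_at read 9.35 and 8.86 on the Lyl1-null arrays against 9.23 and 9.66 on the wild-type arrays (−0.34, SE 0.25), and 1416008_at differed by −0.06. Both of these overlapped between groups, as did the dim 1439315_at, at 4.38 and 4.49 on the Lyl1-null arrays and 4.22 and 4.53 on the wild-type arrays.

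Myb, an activator of progenitor and lymphoid genes, overlapped between the groups in all 3 of its probe sets, 1421317_x_at, 1450194_a_at and 1422734_a_at, which differed by −0.09, −0.25 and −0.20. The brightest probe set, 1421317_x_at, read 13.65 and 13.44 on the Lyl1-null arrays against 13.53 and 13.73 on the wild-type arrays. The second, 1450194_a_at, read 11.99 and 11.54 on the Lyl1-null arrays against 11.92 and 12.11 on the wild-type arrays. In both, the array labelled Lyl1-null replicate 1 lay between the wild-type arrays and the array labelled replicate 2 was the lowest of the 4. The 95% interval of 1421317_x_at ran from −0.54 to 0.37 and that of 1450194_a_at from −0.79 to 0.29.

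The differences on the array labelled Lyl1-null replicate 2 moved with signal level over the whole array. Over all probe sets with a mean between 4 and 5, that array had a median difference of 0.25 from wild type, and over those between 8 and 9 a median of −0.22. The array labelled Lyl1-null replicate 1 had 0.08 and −0.06 in the same bins. Of the 6 dim members 5 were positive on the array labelled Lyl1-null replicate 2, with a median of 0.21, and all 22518 dim probe sets had the same median, 0.21. The part of signal level in these results was not tested. After quantile normalization, an alternative chosen after seeing the data, the same array alone gave 7 of those 8 as lower, without Bcl11a 1457072_at (adjusted p = 0.0767), and Mef2c 1421027_a_at as higher (1.03, adjusted p = 0.0228). Of all tested probe sets, 16.7% passed in that setting and 9.53% passed as lower.

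**Figure D3:**
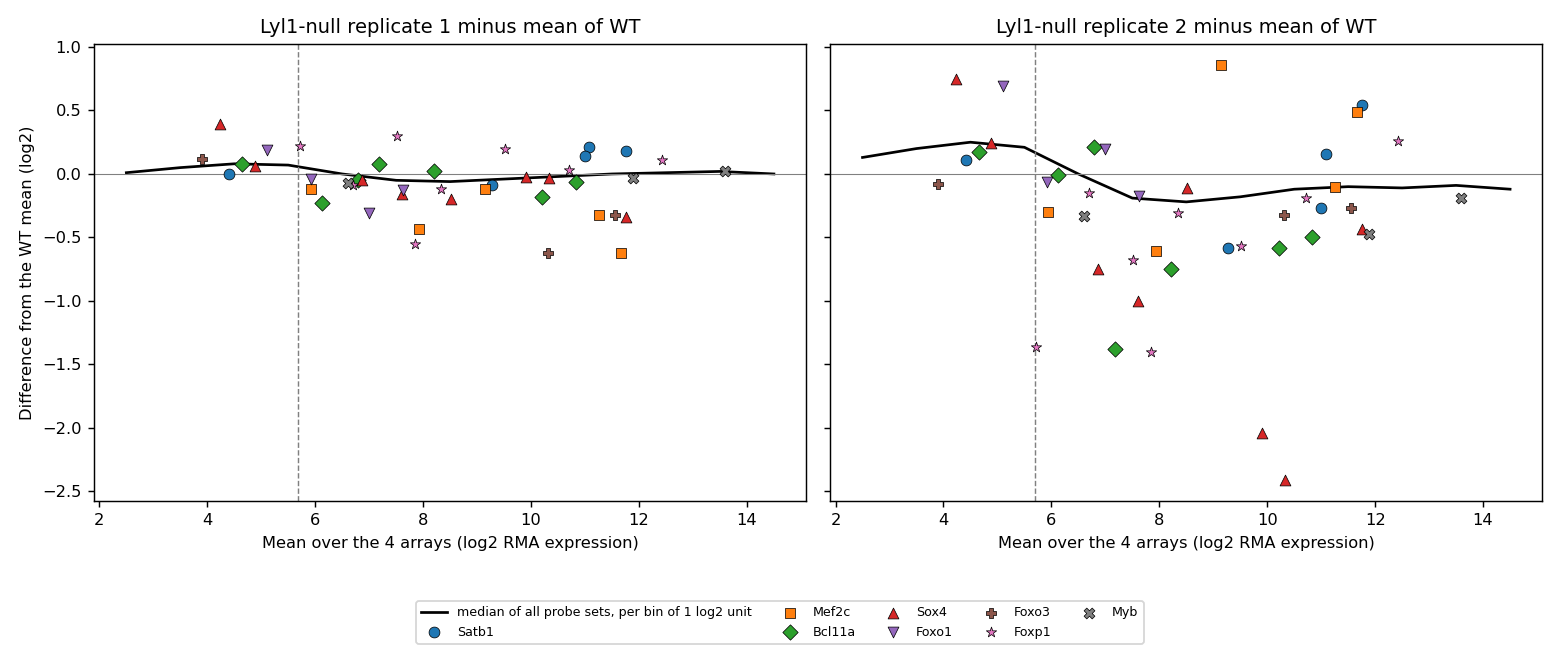
Difference from the wild-type mean (log2) against the mean over the 4 arrays (log2 RMA expression) for the 43 probe sets, on the array labelled Lyl1-null replicate 1 (left) and the array labelled Lyl1-null replicate 2 (right). The black line is the median of all probe sets in bins of 1 log2 unit and the dashed line the level filter. On the right the line runs from 0.25 at a level of 4 to 5 down to −0.22 at 8 to 9, and Sox4, Bcl11a and Foxp1 points lie as low as −2.41, −1.38 and −1.40.

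Genes known to act with these factors were read at their brightest probe set, 1 per gene, in a fit over 11196 genes, of which 0.00893% passed (1, Ctse). In the 8 lists around the factors 0 genes passed. Unless an array is named, list medians are over both Lyl1-null arrays, where all genes had −0.05. The median of all genes was −0.01 on the array labelled Lyl1-null replicate 1 and −0.08 on the array labelled Lyl1-null replicate 2. Of all 11196 genes tested, 6374 were negative and 4818 positive. Of the close relatives, 6 of 12 on the array were tested, 3 lower and 3 higher. Foxo4, another Foxo gene, read 7.45 and 7.35 on the Lyl1-null arrays against 7.69 and 7.68 on the wild-type arrays (−0.28, SE 0.16, adjusted p = 0.644). Mef2a differed by −0.13 at its brightest probe set and by −0.58 to −0.33 at 3 others.

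Targets of the Foxo factors went both ways, with 11 of 17 negative, a median of −0.12 and no overlap between groups for 8 lower and 4 higher genes (all genes 24.0% and 18.7%). The factor Klf2, which keeps lymphocytes quiescent, read 6.02 and 5.75 on the Lyl1-null arrays against 7.35 and 6.27 on the wild-type arrays (−0.93, SE 0.37, adjusted p = 0.644), with a wild-type gap of like size. The recombinase gene Rag2 was higher on both, at 6.85 and 6.90 on the Lyl1-null arrays against 6.12 and 6.17 on the wild-type arrays (0.73, SE 0.16, adjusted p = 0.601). These 2 targets differed in opposite directions, and their relation to the levels of Foxo1 and Foxo3 was not tested. Upstream, 12 of 17 genes of the PI3K and AKT pathway were negative with a median of −0.13. The kinase subunit Pik3cd was at 0.40 in its brightest probe set but at −0.74 and −0.52 in 2 others, and the inhibitor Tsc1 at −0.62 and, in another, −0.64 (adjusted p = 0.644 for both genes).

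Class II histone deacetylases and the kinases that act on Mef2 had 9 of 11 genes negative and a median of −0.35, which was −0.20 on the array labelled Lyl1-null replicate 1 and −0.51 on the one labelled replicate 2. The salt-inducible kinase Sik2 read 7.50 and 7.38 on the Lyl1-null arrays against 7.91 and 8.03 on the wild-type arrays (−0.53, SE 0.16, adjusted p = 0.644). The deacetylase Hdac9 read 7.10 and 6.60 on the Lyl1-null arrays against 7.31 and 7.56 on the wild-type arrays (−0.58, SE 0.23, adjusted p = 0.644). The NuRD complex, a nucleosome remodelling and deacetylase machine that Bcl11a recruits, had 7 of 13 subunits negative and a median of −0.10. Its ATPase Chd3 read 11.09 and 11.11 on the Lyl1-null arrays against 11.71 and 11.51 on the wild-type arrays (−0.51, SE 0.17, adjusted p = 0.644). Its subunit Mbd3 was low on 1 array, at 9.11 and 7.82 on the Lyl1-null arrays against 9.12 and 9.27 on the wild-type arrays.

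Of the coactivators and targets of Myb, 5 of 7 were negative with a median of −0.15. The receptor gene Kit read 9.56 and 8.97 on the Lyl1-null arrays against 10.07 and 10.27 on the wild-type arrays (−0.90, SE 0.24), and the granule gene Mpo 11.39 and 10.68 on the Lyl1-null arrays against 11.79 and 12.30 on the wild-type arrays (−1.01, SE 0.30), both at adjusted p = 0.644. Kit is also a gene of the sort. Other lymphoid genes were split, with 8 negative and 10 positive of 18 and a median of 0.06. Without overlap, 5 lay lower and 6 higher, where 24.0% and 18.7% of all genes did. Rag2, given above, is among the higher ones. Ltb, the lymphotoxin beta gene, read 9.58 and 8.21 on the Lyl1-null arrays against 10.18 and 10.63 on the wild-type arrays (−1.51, SE 0.46, adjusted p = 0.644), and Lax1 differed by −0.88 (SE 0.17, adjusted p = 0.526). Among 14 other factors of early lymphoid development, 9 were negative with a median of −0.12, and Gfi1 (−0.68, SE 0.20) and Tcf4 (−0.45, SE 0.19) differed most among those without overlap (adjusted p = 0.644).

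**Figure D4:**
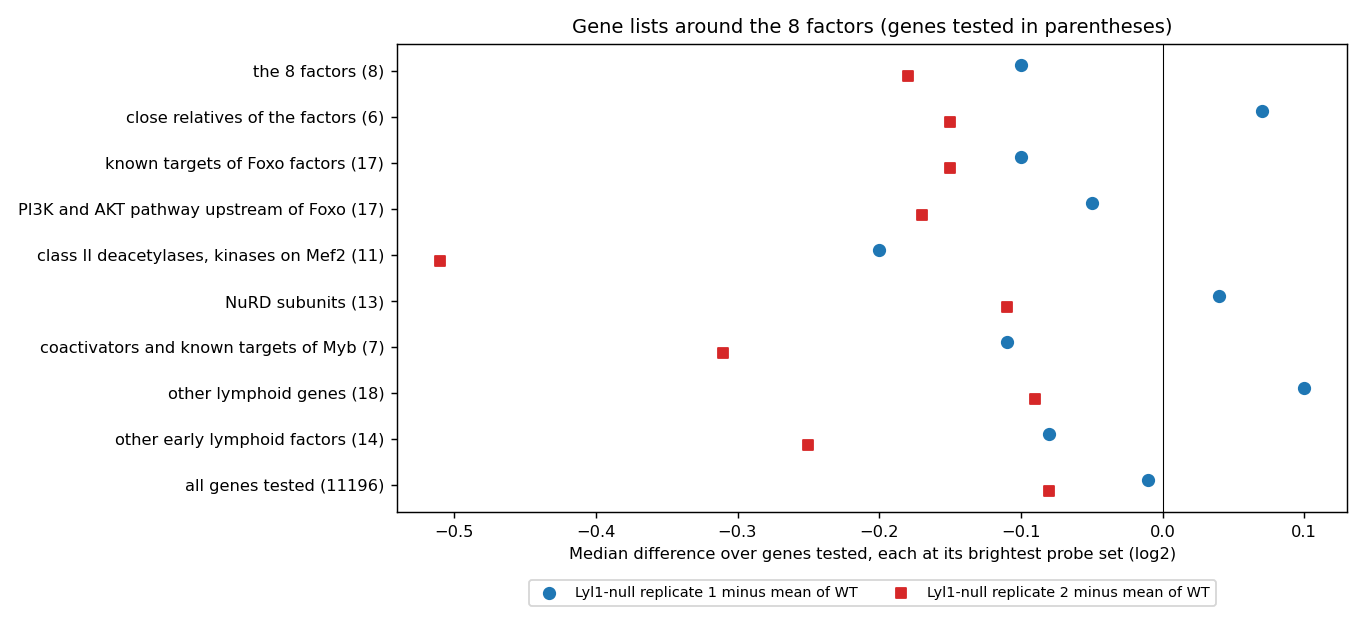
Median difference from the wild-type mean (log2) over the tested genes of each list, for the array labelled Lyl1-null replicate 1 (circles) and the array labelled Lyl1-null replicate 2 (squares). The bottom row is all 11196 genes tested. The 8 factors stand at −0.10 and −0.18, and each of the lists plotted has a lower median on the array labelled Lyl1-null replicate 2 than on the array labelled Lyl1-null replicate 1.

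Markers of other cell types were read beside these lists. Of 8 neutrophil and monocyte genes on the array 5 were tested. Of these, Ngp, a granule protein gene of neutrophils, read 8.87 and 8.73 on the Lyl1-null arrays against 7.05 and 6.55 on the wild-type arrays, and had the lowest adjusted p of the marker genes with all 4 arrays in limma, 0.191, above the threshold. It was higher on both without overlap, as were S100a8 (1.64), Ltf (1.47) and Camp (1.84), where 18.7% of all genes were. Ltf read 6.77 and 6.19 on the Lyl1-null arrays against 4.93 and 5.10 on the wild-type arrays. Both of its wild-type values lay below the level filter, so its mean passed only through the Lyl1-null arrays. The size of the Ltf difference therefore rests on dim wild-type values. The receptor gene Csf1r differed by −0.24, lower without overlap. Alone against wild type, the array labelled Lyl1-null replicate 1 had 3 of the 5 called higher, Ngp, Ltf and S100a8, where 0.0893% of all genes were, and the array labelled Lyl1-null replicate 2 had 4, where 3.94% were. The summed level over the 8, in units of the unlogged values, was 3092 and 2940 on the Lyl1-null arrays against 2125 and 2116 on the wild-type arrays. Csf1r, which went the other way, supplied 1277 and 1418 of these against 1507 and 1677, most of the wild-type sums.

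Of 10 T and NK genes 5 were tested, 4 of them higher and Klrd1 lower (−0.76), each without overlap. Of all genes, 18.7% lay higher and 24.0% lower without overlap, the shares to set beside each marker list here. The summed level of the 10 was 3651 and 3234 on the Lyl1-null arrays against 2856 and 2739 on the wild-type arrays, and the NK-cell granule gene Nkg7 made up most of it, with 3227 and 2745 on the Lyl1-null arrays against 2422 and 2313 on the wild-type arrays. Of 7 B and plasma cell genes 2 were tested, Cd22 (0.28, higher without overlap) and Sdc1 (0.06, overlapping), and the 7 summed to 773 and 721 on the Lyl1-null arrays against 697 and 730 on the wild-type arrays. Of 5 erythroid genes 4 were tested, and Car1 was lower without overlap (−1.14). The 5 summed to 307 and 411 on the Lyl1-null arrays against 677 and 313 on the wild-type arrays. Of 4 megakaryocyte genes 3 were tested, with Pf4 (−0.99) and Gp9 (−0.27) lower and Itga2b (0.38) higher, each without overlap, and the 4 summed to 920 and 838 on the Lyl1-null arrays against 1004 and 888 on the wild-type arrays. The 6 progenitor surface genes were Flt3 and Kit of the sort with Ptprc, Cd34, Cd48 and Cd27. They summed to 15147 and 10971 on the Lyl1-null arrays against 17318 and 18724 on the wild-type arrays. Over both Lyl1-null arrays all 6 were negative, with a median of −0.52, where all genes had −0.05. Their median was −0.22 on the array labelled Lyl1-null replicate 1 and −0.90 on the one labelled replicate 2, where all genes had −0.01 and −0.08. Without overlap, 5 of them lay lower, where 24.0% of all genes did, and Cd27 overlapped. The part of these cells in the values of the 8 factors was not tested. In bulk RNA, fewer cells that express a factor and less RNA of it per cell cannot be told apart.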

How the data were processed

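RNA of sorted LMPPs was amplified, labelled with biotin and hybridised, 1 array per sample, 2 Lyl1-null and 2 wild type, per the labels' protocols. The deposited values are log2 expression values that the authors computed by RMA (named in the submitters' processing notes), which corrects background, equalises the arrays and summarises the probes of a probe set. No RMA version is named there, and values were used as deposited. Genes were named from the platform annotation: 34945 of 45037 probe sets carry 1 symbol, and the gene IDs of 34741 matched a RefSeq table of GRCm38.p6 with 0 changed symbols.

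Probe sets with a mean over the 4 arrays at or above the median mean (5.69) were tested, 22519 in all, with limma 3.58.1 under R 4.3.3 (lmFit, eBayes, two-sided, Benjamini-Hochberg over all tested, 0.05). Each difference is the Lyl1-null mean minus the wild-type mean in log2 units, with its moderated standard error (SE). The fit was tested on simulated data. All probe sets of the 8 members are named. Of each pathway list, the named genes are those past the threshold, otherwise the 2 with the largest difference among tested genes without overlap between groups. Of the cell type marker lists, the rule took genes needed to check the sort, and the further markers named were chosen after their values were seen. The likeness rule took the 3 genes at the smallest Euclidean distance from the tested member probe set with the largest difference. Members, lists and tests were chosen with earlier results of these data known. Alternatives were no filter, quantile normalization, median centring, a trended prior, the replicate number as a block, 1 probe set per gene, a threshold of 0.10, and each array left out. Precision is limited by the number of arrays.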

Additional observations from a re-analysis of the deposited data

How the results depend on the processing

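With all 4 arrays, 0 of 37 member probe sets passed in limma under any of 7 other settings (no filter, quantile normalization, median centring, trended prior, replicate block, 1 probe set per gene, adjusted p under 0.10). Leaving out each array gave 0 to 8, the 8 without the array labelled Lyl1-null replicate 1 and 0 without any of the others. Quantile normalization combined with leaving out that array, added after the data had been seen, also gave 8, and with leaving out the array labelled Lyl1-null replicate 2 it gave 0. The replicate numbers of the labels pair arrays only by number: deviations of same-numbered arrays correlated at −0.38, so a crossed block was added, and both blocks gave 0 calls.

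Quantile normalization turned the sign of Foxo1 1416982_at (0.07, against −0.06), and the other 36 kept theirs. Leaving out 1 array turned the sign of 14 probe sets, none called with all arrays. Over the 4 such fits the differences ran from −0.27 to 0.14 for Satb1 1416008_at, −0.62 to 0.49 for Mef2c 1451506_at, −0.12 to 0.86 for Mef2c 1421027_a_at, −0.75 to 0.02 for Bcl11a 1457072_at, −1.38 to 0.08 for Bcl11a 1426552_a_at, −0.05 to 0.21 for Bcl11a 1447335_x_at, −0.31 to 0.20 for Foxo1 1416982_at, −0.19 to 0.03 for Foxp1 1435221_at, −0.57 to 0.20 for Foxp1 1455242_at, −0.68 to 0.30 for Foxp1 1421142_s_at, −0.27 to 0.03 for Foxp1 1443258_at, −1.36 to 0.22 for Foxp1 1421141_a_at, −0.19 to 0.02 for Myb 1421317_x_at and −0.45 to 0.05 for Myb 1422734_a_at. The cause was not tested beyond the arrays left out.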
